A study of Rattus norvegicus with 4 samples.

Results

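The genes described are Nefl, Nefm and Nefh, which code for the light, medium and heavy neurofilament subunits, and Nes, which codes for nestin. Every probe set that the array's probe table assigns to exactly 1 of these symbols was taken, which gave 7 of the 1263 probe sets other than controls, for 4 of the 720 named genes. Nefl, Nefh and Nes are each read by 2 probe sets and Nefm by 1. The rat samples carry the tissue label brain, adrenal medulla, and their total RNA was hybridised to 4 oligonucleotide arrays with a single colour. The groups are undigested day 1, digested day 1, undigested day 7 and digested day 7 of a time course, with 1 array in each. The sources used here do not give what was digested, the strain, sex and age of the animals, or whether tissue or cultured cells were used. No group was replicated, so no difference can be set against a spread between samples, and differences are given as sizes, without a test unless limma is named.

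Neurofilaments and nestin are intermediate filament proteins. The light subunit is the core on which neurofilaments assemble in neurons, and the medium and heavy subunits add long tails that are phosphorylated in axons and space the filaments apart. A larger neurofilament content goes with thicker axons, and the light chain released into blood and cerebrospinal fluid is measured as a sign of axonal damage. Chromaffin cells of the adrenal medulla come from the same neural crest lineage as sympathetic neurons, and they are known to express neurofilament proteins. Nestin is the filament protein of neural progenitors, it co-assembles with vimentin, and it is largely replaced by other filaments as neural cells mature. In the RefSeq gene table of the assembly GRCr8, Nefl and Nefm are neighbouring protein-coding genes with 1 pseudogene between them.

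The deposited values are linear signals per probe set. The median signal lay between 242 and 284 on the 4 arrays, and the arrays were brought to a common median. Scaled signals under a floor of 51.8 were set to it before taking log2, and 632 probe sets whose mean log2 value reached a signal of 229 were analysed. Of the 7 probe sets of these genes, 6 passed that filter and the dimmer one of Nes did not. The digested day 7 array stood apart in its hybridisation controls, which were 2.49-fold below the mean of the other 3 arrays (median log2 -1.32 over 9 probe sets). The undigested day 7 array had a 3′ to 5′ ratio of beta-actin of 2.66, against 1.35 to 1.48 on the other arrays. Both arrays enter the comparison of digested with undigested at day 7, and each enters 1 of the comparisons of the days. The part of these array differences in the results below was not tested.

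Every neurofilament probe set read far above the floor on each array, and those of Nes read nearer to it. Nefl and Nefm read close to the same level on both day 1 arrays and lowest on the digested day 7 array. Nefh was highest on the undigested day 7 array by its brighter probe set. Nestin, by its brighter probe set, was lower in the digested sample than in the undigested sample at both days. The sizes were small, and 1 difference passed 2-fold among the 24 made by the 6 analysed probe sets in 4 comparisons.

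**Figure D1:**
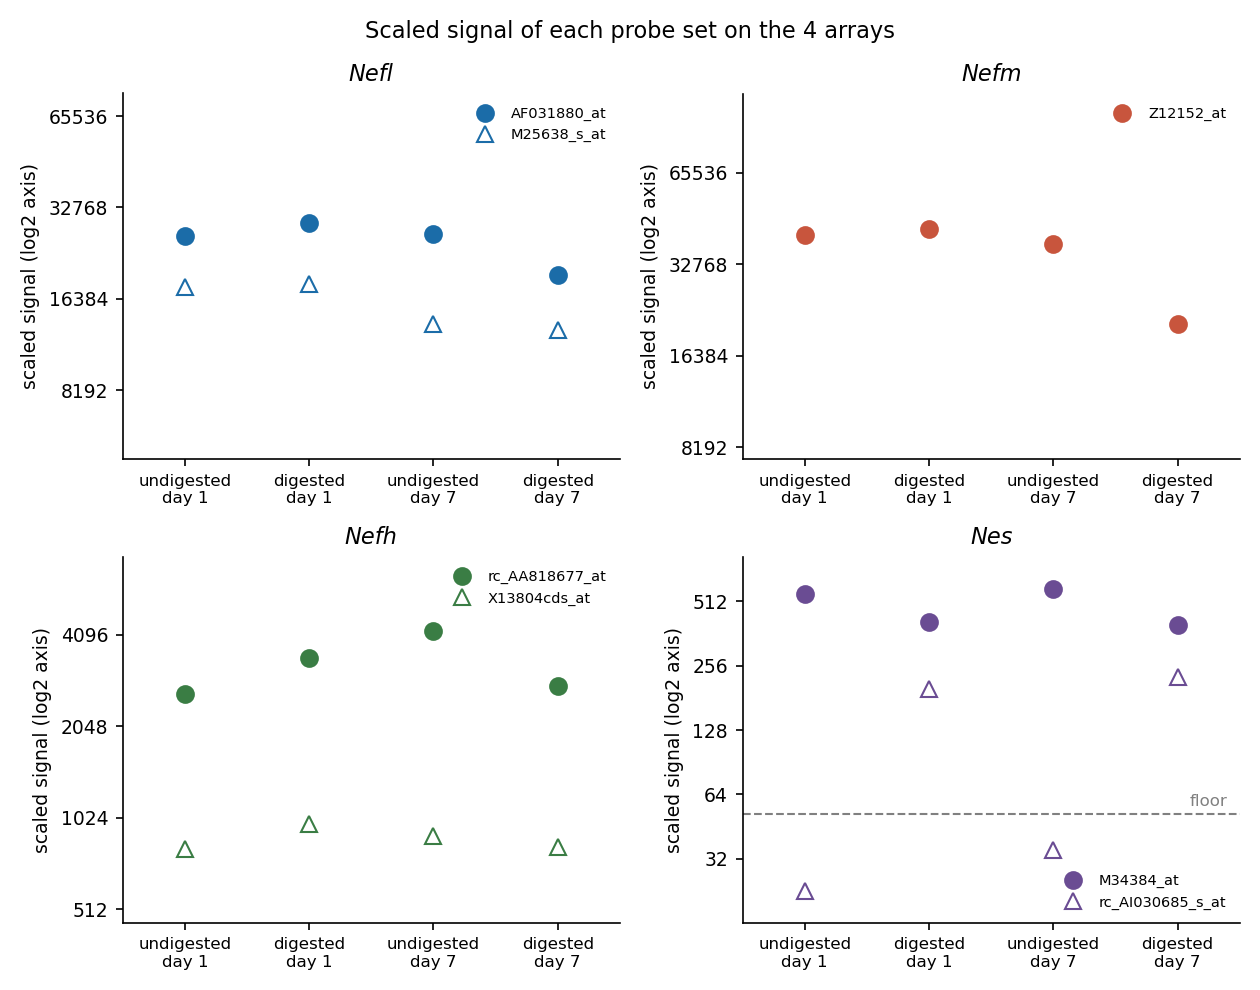
Scaled signal (log2 axis) of the 7 probe sets on the 4 arrays, 1 panel per gene, with 1 point per array and probe set. A filled circle is the brighter probe set of the gene and an open triangle the dimmer one, and the dashed line in the Nes panel is the floor of 51.8. Nefm stands at 20845 on the digested day 7 array and at 38105 or more on the others, and the dimmer Nes probe set is under the floor on both undigested arrays.

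Nefl is the subunit without which neurofilaments do not form. Its brighter probe set, AF031880_at, had scaled signals of 26305 in undigested and 29205 in digested samples at day 1, and of 26895 and 19588 at day 7. The digested day 7 array was lowest, and the other 3 lay within 1.11-fold of each other. The second probe set, M25638_s_at, is of a kind whose probes can be shared by related transcripts, and it gave 17944 and 18291 at day 1 and 13536 and 12937 at day 7. By this probe set both day 7 arrays were lower than both day 1 arrays.

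In digested samples, both Nefl probe sets therefore gave a lower signal at day 7 than at day 1, by 1.49-fold and 1.41-fold (log2 -0.58 and -0.50). In undigested samples they differed: the brighter read a log2 difference of 0.03 and the other one of -0.41. For digested against undigested at day 7 they read -0.46 and -0.07, and at day 1 0.15 and 0.03. Both day 1 values took the opposite sign under at least 1 other scaling, as did the -0.07 of day 7 and the 0.03 between the days. The 2 probe sets disagreed by 0.44 in undigested samples between the days and by 0.39 for digestion at day 7. Both gaps are smaller than the pooled SD between probe sets of a gene. That SD was 0.52 for each of these comparisons over 125 genes with several analysed probe sets. It is the SD of single probe sets about the mean of their gene, not of a gap between 2 of them.

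Nefm codes for the medium subunit, which joins the light chain in the filament and carries a phosphorylated tail. Its probe set, Z12152_at, had scaled signals of 40879 and 42918 in undigested and digested samples at day 1, and of 38105 and 20845 at day 7. Thus 3 arrays lay within 1.13-fold of each other and the digested day 7 array was far below them. Between the days, Nefm was 2.06-fold lower in digested samples (log2 -1.04) and 1.07-fold lower in undigested samples (log2 -0.10). At day 7 it was 1.83-fold lower in the digested than in the undigested sample (log2 -0.87), while at day 1 the log2 difference was 0.07, which turned negative under each of the other 3 scalings.

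The 2.06-fold difference is the only one past 2-fold among the 6 analysed probe sets, and it lies close to the threshold. It was -1.003 in log2 in the values as deposited, -1.05 after quantile normalisation and -0.98 after cyclic loess, the last of which is short of 2-fold. It rests on the array with the low hybridisation controls.

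Nefh codes for the heavy subunit, whose long tail is the most heavily phosphorylated of the 3 and which appears last as neurons mature. Its brighter probe set, rc_AA818677_at, had scaled signals of 2622 and 3427 in undigested and digested samples at day 1, and of 4226 and 2777 at day 7. The undigested sample was thus lower than the digested one at day 1 and higher at day 7. The coding-sequence probe set, X13804cds_at, had 809 and 979 at day 1 and 894 and 823 at day 7. It gave the same order of undigested and digested samples at each day, over a narrower range of 1.21-fold from lowest to highest, against 1.61-fold by the brighter one.

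At day 1 the digestion difference of Nefh was 1.31-fold by the brighter probe set and 1.21-fold by the other, higher in the digested sample (log2 0.39 and 0.27). At day 7 the digested sample read 1.52-fold and 1.09-fold below the undigested one (log2 -0.61 and -0.12), of which the smaller one turned to 0.02 in the values as deposited. Between the days, undigested samples were 1.61-fold higher at day 7 by the brighter probe set (log2 0.69). The other probe set gave 0.14, and -0.09 in the values as deposited. In digested samples both were lower at day 7, by 1.23-fold and 1.19-fold (log2 -0.30 and -0.25).

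Nestin is read by a pair of probe sets that ran in opposite directions. The brighter, M34384_at, had scaled signals of 555 and 409 in undigested and digested samples at day 1, and of 584 and 398 at day 7. Both undigested arrays were higher than both digested arrays, by 1.36-fold at day 1 and 1.47-fold at day 7 (digested minus undigested log2 -0.44 and -0.55). Between the days its log2 difference was 0.07 in undigested samples, with the opposite sign as deposited and after quantile normalisation, and -0.04 in digested samples.

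The other Nes probe set, rc_AI030685_s_at, was made from an expressed sequence tag and can share probes with related transcripts. It had scaled signals of 22.7 and 199.7 in undigested and digested samples at day 1, and of 35.3 and 226 at day 7. Both undigested arrays were under the floor of 51.8 and both digested arrays above it. With the floor the digested samples were 3.85-fold and 4.36-fold higher (log2 1.95 and 2.12), and without it 8.79-fold and 6.395-fold. The size depends on the floor: at the 40th percentile, a signal of 162, the log2 differences were 0.30 and 0.48.

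The 2 probe sets of Nes thus had log2 digestion differences that were -2.39 apart at day 1 and -2.68 apart at day 7 (brighter minus dimmer). The size of these gaps depends on the floor, and with the floor at the 40th percentile they were -0.74 and -1.03. Without a floor they were wider, as the dimmer probe set then had log2 digestion differences of 3.14 and 2.68. The 2 probe sets had opposite directions in each case. The pooled SD between probe sets of a gene, 0.32 and 0.52, was taken over analysed probe sets, which the dimmer one of Nes is not. Differences of 2-fold were common when dim probe sets were kept. Of all 1263, 16.5% differed at least 2-fold with digestion at day 1 and 21.6% at day 7, and 24 (1.9%) were at least 2-fold higher in the digested sample at both days. Which of the pair follows the nestin transcript was not tested. Nestin's partner vimentin is read by 1 probe set of Vim, which was listed between 12.1 and 21.5 on the 4 arrays, under the floor on each.

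Set beside the rest of the array, the 6 analysed probe sets stood mostly on the lower side on the digested day 7 array. At day 1, 0 of 6 differed at least 2-fold with digestion, where 3.48% of the 632 analysed probe sets did. Their median log2 difference was 0.11, against 0.12 over all analysed. At day 7, 0 of 6 passed 2-fold, where 11.4% of all did, and all 6 were lower in the digested sample, with a median of -0.50 against -0.05. Over all 632 the median of -0.05 means that at least as many were lower as higher. Among the brighter 316 of the 632 analysed probe sets, 57.9% were lower there. That brighter set holds 4 of the 6, without Nefh X13804cds_at and Nes M34384_at, so its share is not a like background for all 6. The 6 probe sets read only 4 genes. In the values as deposited 4 of the 6 were lower, after quantile normalisation 5 were and 1 was at 0, and after cyclic loess 5 were. In the comparison of the days, 0 of 6 passed in undigested samples, where 13.3% of all did, with a median of 0.05 against 0.17. In digested samples 1 of 6 passed, Nefm, where 8.07% of all did (4.75% lower and 3.32% higher). There the median was -0.40 against 0.04, and all 6 were below 0 under each of the 4 scalings. Of these, Nes M34384_at was nearly unchanged, at -7.51e-05 as deposited and -0.04 under each other scaling. Among the brighter 316 of the 632 analysed probe sets, which hold 4 of the 6, 46.8% were below 0 in this comparison. The median of 0.04 over all 632 means that at least as many were above 0 as below it. These comparisons share arrays, so the lower values at day 7 on the digested array enter 2 of them.

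**Figure D2:**
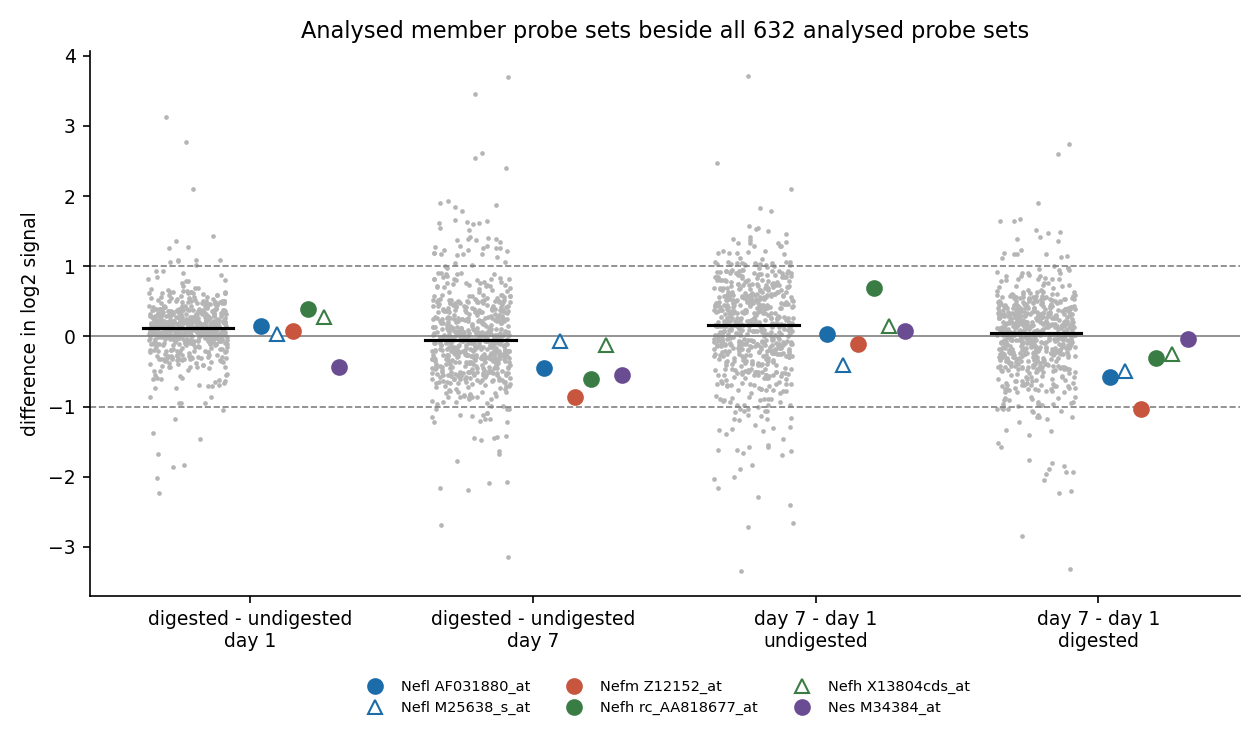
Difference in log2 signal (vertical axis) of the 6 analysed probe sets in the 4 comparisons, beside the 632 analysed probe sets as grey points with their median as a black bar. Dashed lines mark 2-fold. Nefm lies at -1.04 for day 7 minus day 1 in digested samples, and the other points of these genes lie between the dashed lines.

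The scaling of the arrays decided the sign of several small differences. Values as deposited moved the median of all analysed probe sets by -0.13, 0.14, -0.23 and 0.04 for digestion at day 1 and day 7 and for the day in undigested and digested samples. A single factor per array moves every probe set above the floor alike, and those of these genes moved by the same amounts. Under the 4 scalings, Nefm ranged from -0.87 to -0.70 for digestion at day 7 and the brighter probe set of Nefl from -0.46 to -0.31. The brighter probe set of Nefh ranged from 0.46 to 0.69 for the day in undigested samples. The brighter probe set of Nes ranged from -0.57 to -0.44 for digestion at day 1 and from -0.57 to -0.41 at day 7.

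**Figure D3:**
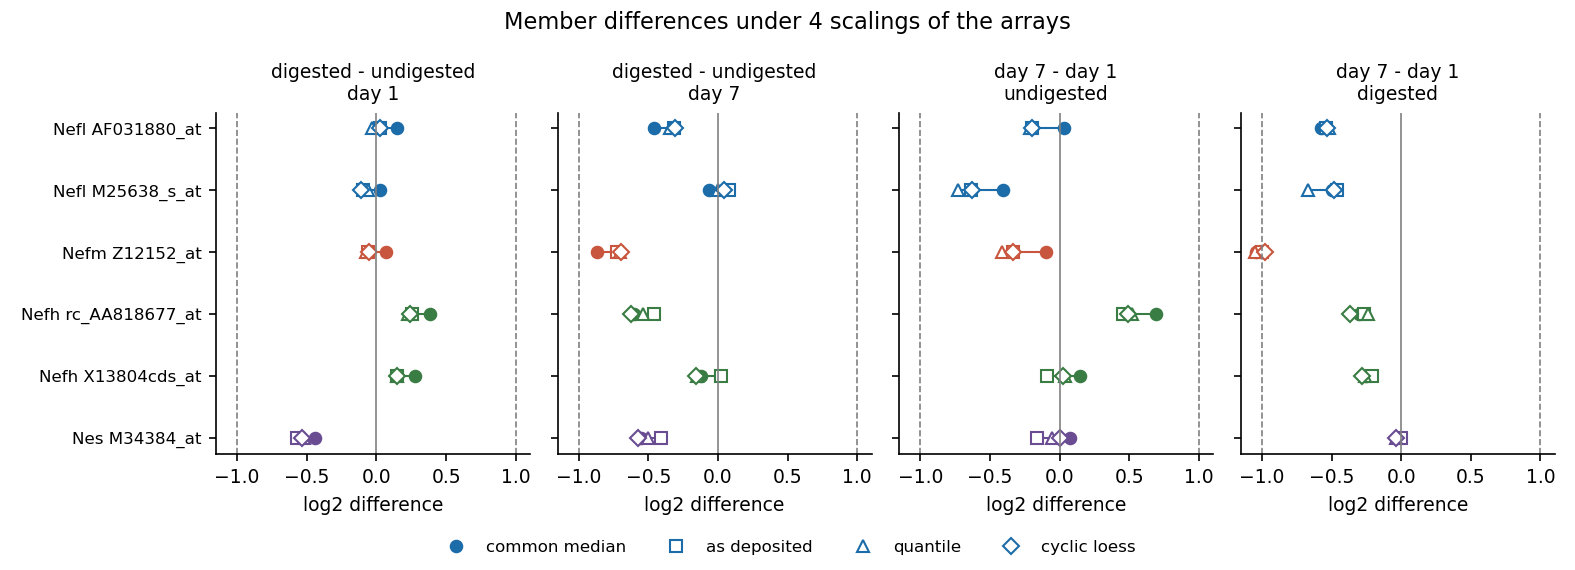
Log2 difference (horizontal axis) of the 6 analysed probe sets in the 4 comparisons under 4 scalings of the arrays: to a common median (filled circle), as deposited, quantile and cyclic loess. Lines join the lowest and highest value, and dashed lines mark 2-fold. The digested day 7 minus day 1 values of Nefm lie between -1.05 and -0.98, and those of Nefl and Nefh are below 0 under each scaling.

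The change of the digestion difference from day 1 to day 7 uses all 4 arrays. It was -0.99 in log2 for the brighter probe set of Nefh, -0.94 for Nefm and -0.61 for the brighter one of Nefl. The dimmer probe sets gave smaller values, -0.39 for Nefh and -0.09 for Nefl, and the brighter one of Nes gave -0.11. None of the 6 passed 2-fold, where 14.4% of the 632 did, and the median over all was -0.18. Under the other 3 scalings the brighter probe set of Nefh ranged from -0.86 to -0.72 and Nefm from -0.67 to -0.63, and the brighter one of Nefl came down to between -0.34 and -0.31. The median over all analysed was then 0.09 as deposited, -0.01 after quantile normalisation and -0.03 after cyclic loess. Under these scalings the dimmer one of Nefl turned positive, as did the brighter one of Nes except after cyclic loess (-0.04).

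The ratio of subunits within an array does not depend on a single scaling factor per array. By the brighter probe sets, the ratio of Nefh to Nefm exceeded its day 1 value at day 7 by 1.73-fold in undigested samples and 1.67-fold in digested samples (log2 0.79 and 0.74). These differences share no array. With the dimmer probe set of Nefh the same ratio was 1.19-fold and 1.73-fold higher (log2 0.25 and 0.79). The direction was the same in both states, and the sizes were close in digested samples and not in undigested ones. Both ratios use the same probe set of Nefm, so they are not independent of each other. In digested samples Nefh itself was lower at day 7 (log2 -0.30 and -0.25), and the ratio was higher because Nefm was lower still (log2 -1.04). The ratio of Nefh to the brighter probe set of Nefl was also higher at day 7, but by less than that to Nefm. By the brighter Nefh probe set it changed by log2 0.66 in undigested and 0.27 in digested samples, and by the dimmer one by 0.11 and 0.33. The ratio of Nefm to Nefl was lower at day 7 in digested samples, by 1.38-fold with the brighter and 1.46-fold with the dimmer probe set of Nefl. In undigested samples it was 1.097-fold lower with the brighter and 1.24-fold higher with the dimmer one. These ratios had no test, and they were chosen after their values were seen. The 0.25 is smaller than the SD of 0.52 between probe sets of a gene. That SD is for differences of single probe sets, and no spread was computed for a ratio of 2 genes.

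An additive limma fit of digestion and day over all 4 arrays was the only test the layout allowed. It had 1 residual degree of freedom, and the spread was pooled over the 632 probe sets. With 1 array per group, that residual is how far the digested minus undigested value at day 7 departs from that at day 1. Scatter among samples cannot be separated from a real departure, so the SE and p are not set against scatter alone. The departure was -0.99 for the brighter probe set of Nefh and -0.94 for Nefm. Their SEs, 0.348 and 0.344, were the largest of the 6. For digestion, Nes M34384_at had a log2 difference of -0.50 ± 0.31 (SE), digested minus undigested, with a limma p of 0.140 and an adjusted p of 0.986. For the day, Nefm had -0.57 ± 0.34 with a limma p of 0.132 and an adjusted p of 0.481, and Nefl M25638_s_at had -0.45 ± 0.31 with an adjusted p of 0.555. By limma, 0 of the 6 probe sets passed an adjusted p of 0.05 for either factor, and 0 had an unadjusted p under 0.05. After quantile normalisation limma gave Nefl M25638_s_at an unadjusted p of 0.040 for the day, with an adjusted p of 0.381. Over all 632, limma called 0 for digestion (42 at an unadjusted p under 0.05) and 1 for the day (0.158%, and 91 at an unadjusted p under 0.05). A miss in this fit does not show that the levels were equal.

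Among the other genes on the array, some had nearly the same pattern over the 4 arrays. Likeness was the root mean square distance between log2 values after removing each gene's mean, over 382 other genes, and 4 arrays leave much room for patterns to coincide. Nearest to Nefl (AF031880_at) were Aco1, which codes for the iron-regulated cytosolic aconitase, at 0.035, the synaptotagmin gene Syt5 at 0.087 and the G protein subunit gene Gnb1 at 0.090, where the median gene was at 0.35. Nearest to Nefm were the potassium channel gene Kcnh1 at 0.064, the serotonin receptor gene Htr4 at 0.073 and the syndecan gene Sdc3 at 0.096, with a median of 0.51. These genes were picked for a like pattern, so differences of like size follow from the choice. In digested samples Kcnh1 and Htr4 (AJ011370_g_at) were 2-fold or more lower at day 7, at a log2 of -1.07 and -1.04. Of all analysed probe sets 4.75% were. The Htr4 probe sets AJ011370_at and U20907_at, too dim to be analysed, read 0 and 0.67 in the same comparison, so the value for Htr4 rests on 1 probe set.

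Nearest to Nefh (rc_AA818677_at) were the calmodulin gene Calm2 at 0.020, the calcium channel subunit gene Cacna2d1 at 0.046 and B2m, the light chain of class I histocompatibility molecules, at 0.053, with a median of 0.32. Calm2, picked in the same way, had log2 differences of 0.37 and -0.56 for digestion at day 1 and day 7, against 0.39 and -0.61 for Nefh. Nearest to Nes (M34384_at) were the somatostatin receptor gene Sstr4 at 0.063, the synaptotagmin gene Syt8 at 0.073 and the growth factor gene Igf1 at 0.102, with a median of 0.36. Igf1 was read here by X06107_r_at, and its probe sets D00698_s_at, M15481_at and M15481_g_at were too dim to be analysed. The 4 genes were not each other's nearest. Nefl and Nefm lay at 0.21, with 67 of the 382 genes closer to Nefl and 10 closer to Nefm, and Nefm and Nefh lay at 0.41, with 101 closer to Nefm and 256 closer to Nefh.

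**Figure D4:**
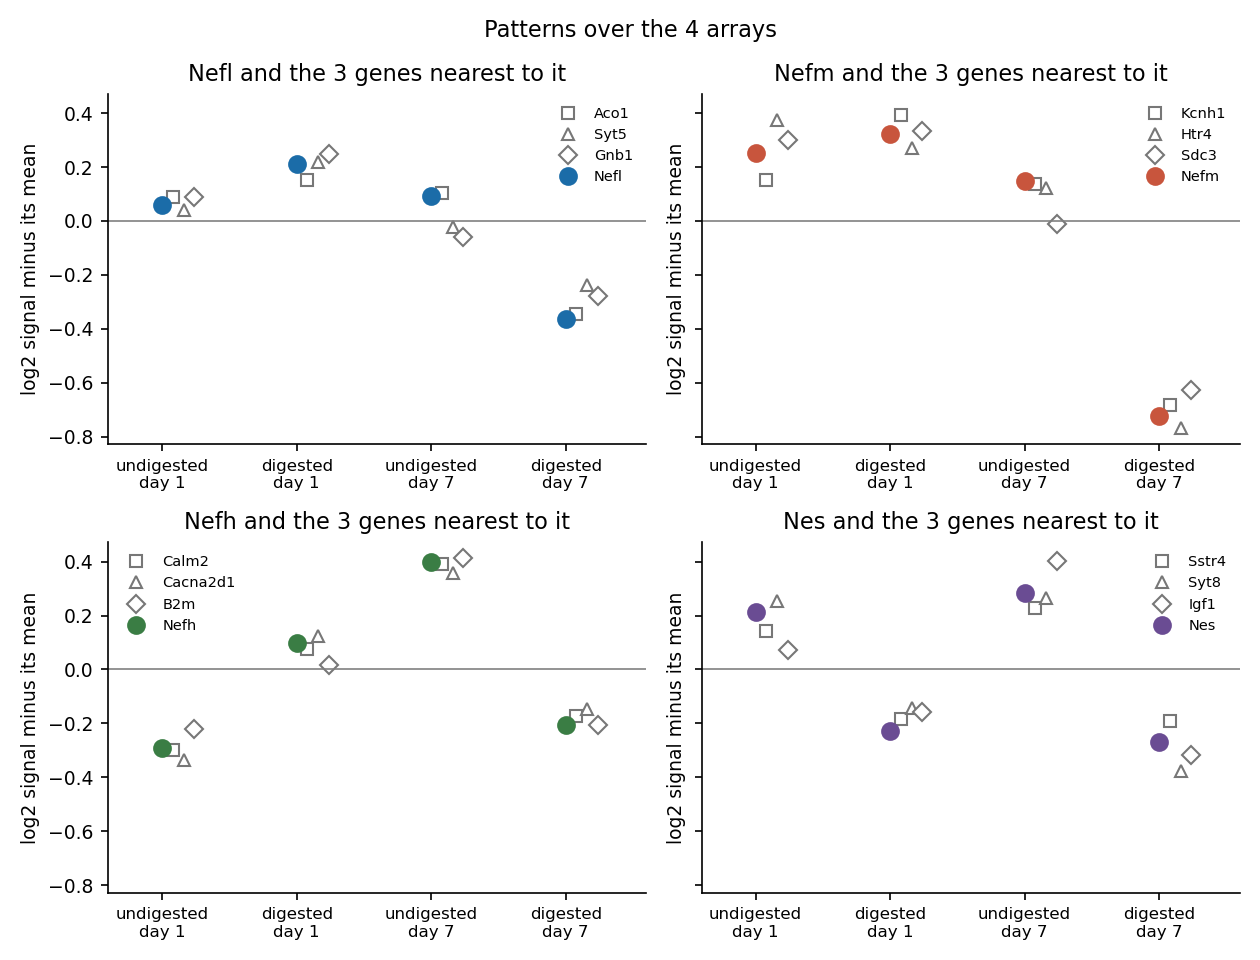
Log2 signal minus its mean over the 4 arrays (vertical axis) for the brightest probe set of each gene (filled circles) and for the 3 genes nearest to it (open symbols, set side by side for legibility). Nefl and Nefm are lowest on the digested day 7 array, Nefh is highest on the undigested day 7 array, and Nes is lower on both digested arrays.

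Other genes of the filament system were taken from lists set out in the design. Of 10 relatives among the intermediate filament genes, the probe table named only Vim. Of 14 genes for transport and linkage, it named Plec, which codes for plectin, a linker of intermediate filaments to other structures. Plec had scaled signals of 587 and 625 at day 1 and of 1020 and 496 at day 7 in undigested and digested samples. Its highest array was the undigested day 7 array, as for the brighter probe set of Nefh, and at day 7 the digested sample read 2.06-fold below the undigested one (log2 -1.04).

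Of 20 genes for kinases, phosphatases and proteases that act on filaments, 6 were measured and 5 analysed, by 8 probe sets, and 0 of the 8 passed 2-fold in any of the 4 comparisons, where 3.48%, 11.4%, 13.3% and 8.07% of all analysed probe sets did. Capn1 and Capn2 code for calpains, proteases that cut neurofilaments. Capn1 had 11312 and 12783 at day 1 and 8134 and 10628 at day 7 in undigested and digested samples, and Capn2 had 12483 and 12967 at day 1 and 18836 and 13177 at day 7. They ran in opposite directions between the days in undigested samples (log2 -0.48 and 0.59). Gsk3b, a kinase gene, was lower in the digested sample at day 7 by both its probe sets (log2 -0.51 and -0.79). Mapk9, which codes for a JNK kinase, read higher there by its brightest one (log2 0.82), and its other probe sets gave 0.48 and 0.08. The median of the list was 0.06, -0.14, 0.26 and -0.01 in the order of comparisons used above.

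Of 10 genes of axonal microtubules and growth, 5 were measured and analysed, by 9 probe sets. Counts past 2-fold were 0 for digestion at day 1, 1 higher and 0 lower for digestion at day 7, 2 lower for the day in undigested and 1 lower in digested samples. Over all analysed probe sets the shares past 2-fold were 3.48%, 11.4%, 13.3% and 8.07% in the same comparisons. Gap43, a marker of axon growth, was the most different between the days, with 407 and 435 at day 1 and 102 and 152 at day 7 in undigested and digested samples. Mapt, which codes for tau, was highest on the undigested day 7 array at 32249, with 17104, 20140 and 16878 on undigested day 1, digested day 1 and digested day 7. Map1a had log2 differences of 0.90 and 0.31 between the days in undigested and digested samples, and Map1b had -0.33 and -0.54, each by its brightest probe set. The other analysed probe sets of Map1b gave -0.59 and -0.18 (U52950_g_at) and -1.06 and -0.15 (X16623cds_s_at). The latter was, with Gap43, one of the 2 lower in undigested samples and also the 1 past 2-fold higher for digestion at day 7 (log2 1.38). The list's median was 0.31, -0.28, 0.51 and -0.18 in the order of comparisons used above, against 0.12, -0.05, 0.17 and 0.04 over all analysed probe sets.

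The labelled tissue was checked against markers of the cell types it could hold. Of 8 chromaffin markers the table named 3, Th, Dbh and Ddc, whose summed signal was 269425 and 286956 in undigested and digested samples at day 1 and 349823 and 235198 at day 7. Of 10 neuronal markers 6 were named, with sums of 162213, 173177, 147609 and 128419 in the same order. The chromaffin sum was highest on the undigested day 7 array, as the brighter but not the dimmer probe set of Nefh was. Both sums were lowest on the digested day 7 array, as Nefl and Nefm were, but their members differed. By its brightest probe set, Th was lowest there, while Dbh and Ddc were lowest on the undigested day 1 array. Of the 6 neuronal genes, Eno2 was lowest on the digested day 7 array, Snap25 and Gap43 on the undigested day 7 array, and Syp, Syn1 and Map2 on the undigested day 1 array. In bulk RNA, fewer cells of a type and less RNA per cell cannot be told apart. Of 7 astrocyte markers 4 were named, with sums of 7073 and 7304 at day 1 and 3104 and 3821 at day 7, carried mostly by Glul. The 4 named of 8 oligodendrocyte and Schwann cell markers summed to between 2453 and 3476, and the 1 named immune marker, Itgam, lay between 7.92 and 123. Of the progenitor list only Vim was named, at the floor throughout. The table named 0 of 7 markers of adrenal cortex, 0 of 6 of endothelium and 0 of 6 of fibroblasts, so these cell types could not be checked. The part of cell composition in the neurofilament and nestin differences was not tested.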

How the data were processed

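The authors deposited linear signal intensity per probe set for 4 arrays. The mean trimmed by 2% at each end was 2515 or 2516 on every array, so the arrays appear scaled to a common mean. The sources used here do not give the software behind the signals. Of 1322 probe sets, 59 controls were set aside. Gene names came from GEO's probe table, and the 7 probe sets of these genes matched the RefSeq gene table by gene identifier with 0 changed symbols. Scaling, a floor at the 20th percentile, log2 and a filter at the median of mean log2 values followed. A count of differences used a log2 difference of at least 1 either way, that is, 2-fold. The genes and lists were chosen with earlier results of these data known, and the subunit ratios after their values were seen. Every member was named. From each list up to 4 genes with the largest mean difference over a pair of comparisons were named, and for each member the 3 genes of nearest pattern. Alternatives were other scalings, floors, filters and thresholds and an additive fit. Python 3.11.15 with numpy 2.4.6, pandas 2.3.3 and matplotlib 3.10.9, and limma 3.58.1 in R 4.3.3, were used, and the steps were tested on simulated data. The number of arrays limits the precision.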

Additional observations from a re-analysis of the deposited data

Results flagged for a closer look

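The brighter probe set of Nefh, rc_AA818677_at, ran in opposite directions in both pairs of comparisons, and kept each direction under the 4 scalings. Its log2 digestion difference was 0.39 at day 1 and -0.61 at day 7, and its log2 day difference was 0.69 in undigested and -0.30 in digested samples. Both pairs are made from the same 4 arrays and share 1 change, of -0.99. Over the 632 analysed probe sets the median of this change was -0.18, and 14.4% changed at least 2-fold either way. Calm2, Cacna2d1, B2m and the brightest probe set of Mapt had the same directions, and the share of all probe sets that do was not counted. The highest array of rc_AA818677_at, undigested day 7, is the one with the beta-actin ratio of 2.66. The dimmer probe set of Nefh, X13804cds_at, had the same directions at smaller sizes. In the values as deposited it turned to 0.02 for digestion at day 7 and to -0.09 for the day in undigested samples. With 1 array per group the difference between the days, or between the digestion states, was not tested.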

How the results depend on the processing

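The count of these probe sets past 2-fold was 0 of 6 for digestion at each day and for the day in undigested samples, and 1 of 6 for the day in digested samples. Cyclic loess gave 0 for the last, as did a 3-fold threshold. Without the filter on dim probe sets the count was 1 of 7 for digestion at day 1 and 1 of 7 at day 7, each time the dimmer Nes probe set. A 1.5-fold threshold gave 2 for digestion at day 7, 1 for the day in undigested samples and, where 2-fold had given 0, 3 for the change of the digestion difference. At that threshold 27.8%, 37.2% and 36.9% of the 632 analysed probe sets passed in the same comparisons. Of 161 values recomputed under other scalings, floors or an offset, 159 moved by less than the SD between probe sets of a gene. These include the changes of the digestion difference. Sign turned in 21, each with a log2 size of at most 0.15 in the main scaling. All 21 came with the scalings: 9 of 35 as deposited, 7 of 35 after quantile normalisation and 5 of 35 after cyclic loess. The other floor and the offset turned 0 of 28 each, and a floor cannot move probe sets that lie above it. The 2 that moved further were the digestion differences of the dimmer Nes probe set with the floor at the 40th percentile. The additive fit gives the mean over a pair of comparisons, and of 24 single differences set beside it 4 moved further and 9 had the other sign. The additive limma fit called 0 of the 6 under each of the 4 scalings. No paired analysis was possible because the groups compared share fewer than 2 replicate numbers, other than the additive fit itself, which compares digested with undigested within each day. No probe set was shown to be above background, which limits the dimmer Nes probe set most.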
